A study of Mus musculus with 3 samples.

Results

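Homeobox genes of the Msx and Dlx families, with Barx2 and Prrx1, were examined as a group: Msx1, Msx2, Dlx1, Dlx2, Dlx3, Dlx4, Dlx5, Dlx6, Barx2 and Prrx1. These 10 of 21938 protein-coding genes were taken by name and not by a rule on their values, though with earlier results of these data known. Each was read with a window from 50 kb before its start site to 50 kb after its end on GRCm38. Accessible chromatin had been profiled with Omni-ATAC-seq, an assay that reads where a transposase, Tn5, can insert sequencing adapters. The cells were hair follicle stem cells (HFSCs), sorted as CD34+ CD49f+ Sca-1- from the dorsal skin of telogen mice aged 6 months, with hair follicles at rest. The 3 libraries comprised 1 Msx2-WT and 2 Msx2-KO. Per the study's methods, Msx2-KO mice were homozygous for a pMC1-neo cassette placed at an NdeI site before exon 2 in embryonic stem cells, a germline allele carried by every cell, and Msx2-WT mice were hair cycle-matched C57BL/6J. The number of animals behind each library is not given in the sources used here. The labels give the Msx2-WT library another batch date than both Msx2-KO libraries. Batch and genotype cannot be told apart, and with a single wild-type library no test between genotypes was possible. The deposited Msx2-KO lists name their peaks cKO, and in replicate 1 the library number in those names differs from the label, which was followed. Series of 3 values below are in the order Msx2-WT, Msx2-KO replicate 1, Msx2-KO replicate 2 unless a library is named.

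MSX and DLX proteins are homeodomain transcription factors that bind short TAAT-containing sequences. MSX proteins are known mainly as repressors, DLX proteins mainly as activators, and the families can bind the same sites. In skin, Msx2 and Dlx3 are known for roles in hair shaft formation, and Msx1 and Msx2 act redundantly in several ectodermal organs. Dlx genes lie in convergent pairs (Dlx1 with Dlx2, Dlx3 with Dlx4, Dlx5 with Dlx6), so the windows of paired genes overlap and a peak between them belongs to both.

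The libraries differed in depth. Levels are given as tags at a summit over the library's own background, which was 1.74, 0.476 and 0.790 tags. Tags over background at the 13111 regions open in every library had a median of 13.2, 23.1 and 30.4, so that a lower value in Msx2-WT was the rule across the genome. Where this matters, a value is also given relative to that median of its own library. The fewest tags that passed the q-value limit of 0.01 were 9, 5 and 6. Intervals are 95% Poisson intervals and cover counting error only. Of 8 HFSC markers, 5, 5 and 7 had a promoter peak, beside 47.0%, 37.8% and 53.5% of all genes. Nfatc1, a quiescence factor of HFSCs, had none, Lgr5 and Tbx1 had none in Msx2-WT, and Krt15 and Cd34, the latter a marker the cells were sorted on, had none in Msx2-KO replicate 1. Of 5 melanocyte markers, Dct and Pmel had an open promoter in every library, and Tyr, Sox10 and Mlana in none. None of 5 leukocyte markers was open in any library, and of 4 endothelial markers 0, 1 and 2 were.

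A promoter peak, meaning a summit within 1500 bases of a start site, was present at 3, 4 and 5 of the 10 genes. Over all genes the shares were 47.0%, 37.8% and 53.5%. Msx2, Dlx5 and Barx2 had a promoter peak in every library, where 35.1% of all genes did. Msx1 had it in both Msx2-KO libraries but lacked it in Msx2-WT, a pattern of 2.31% of all genes, and Prrx1 had it in Msx2-KO replicate 2 alone. Dlx1, Dlx2, Dlx3, Dlx4 and Dlx6 had no promoter peak in any library, as did 44.0% of all genes. Open and closed refer here to a peak past the limit and to its absence, and a closed promoter may still hold tags.

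**Figure D1:**
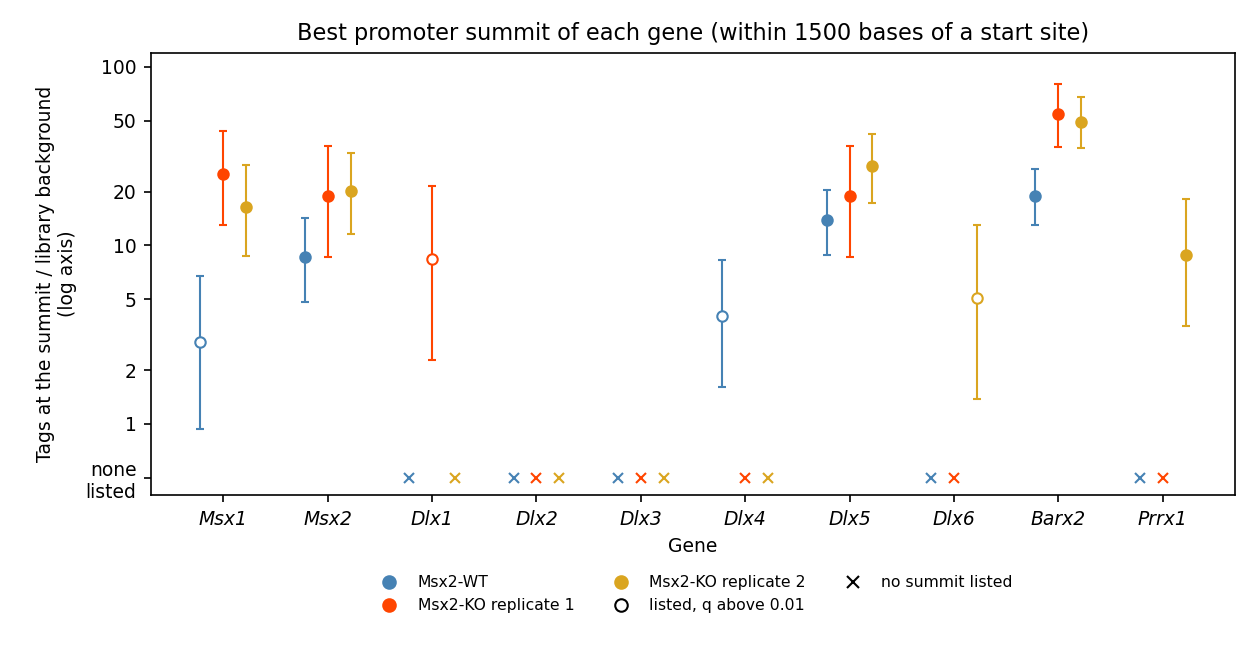
Tags at the best promoter summit over the background of the library (log axis) for each of the 10 genes, with 95% Poisson intervals. Filled circles passed a q-value of 0.01, open circles were listed by the authors without passing it, and crosses mark genes without a listed summit. Msx1 was at 2.88 in Msx2-WT and at 25.2 and 16.5 in the Msx2-KO libraries, while Msx2, Dlx5 and Barx2 were filled in all 3.

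At Msx2, the targeted gene, the promoter summit held 15, 9 and 16 tags. Over background these were 8.63 (4.83 to 14.2), 18.9 (8.65 to 35.9) and 20.2 (11.6 to 32.9). Relative to the median shared region they were 0.652, 0.818 and 0.667, with overlapping intervals, so that no difference at the Msx2 promoter was detectable at this depth. The summits lay between the GENCODE start and a RefSeq start further into the gene, in annotated 5′ UTR. Beyond that peak, the Msx2 window held few peaks past the limit. Further summits of at most 8 tags were listed there in Msx2-WT and Msx2-KO replicate 2 without passing it. Msx2-WT and Msx2-KO replicate 1 had no other peak in 106 kb, and Msx2-KO replicate 2 had 1, with 7 tags at chr13:53462116-53462858, 4.23 kb past the gene end in intergenic sequence. At the depth of Msx2-KO replicate 1 those 7 tags would come to 4.22, under the 5 needed there. No peak fell in the rest of the Msx2 gene body in any library.

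At Msx1, the paralog of Msx2, the libraries differed. Its promoter summit held 5 tags in Msx2-WT (interval 1.62 to 11.7), with a −log10 q of 0.0358. The Msx2-KO libraries held 12 (6.20 to 21.0) and 13 (6.92 to 22.2) tags there and passed the limit. Over background the values were 2.88 (0.934 to 6.71), 25.2 (13.0 to 44.0) and 16.5 (8.76 to 28.1), with Msx2-WT below both. Relative to the median shared region they were 0.217 (0.0706 to 0.507), 1.09 (0.564 to 1.91) and 0.542 (0.288 to 0.926), so that on this scale the interval of Msx2-WT met that of Msx2-KO replicate 2 and not that of Msx2-KO replicate 1. Put at the depth of Msx2-WT, the Msx2-KO tags would come to 43.8 and 28.6, or to 25.1 and 12.5 once the medians of shared regions are also made equal.

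The second Msx1 region lay in intergenic sequence at chr5:37784870-37785910, 39.5 kb from the start and 35.4 kb past the gene end, with Msx1 as the nearest gene. It held 24 and 38 tags in the Msx2-KO libraries, and Msx2-WT listed 6 there with a −log10 q of 0.462. Over background these were 50.4 and 48.1 in Msx2-KO and 3.45 in Msx2-WT. Relative to the median shared region, Msx2-WT was at 0.261 (0.0957 to 0.568) and the Msx2-KO libraries at 2.18 (1.40 to 3.25) and 1.58 (1.12 to 2.17), so neither interval of Msx2-KO met that of Msx2-WT. Here and at the Msx1 promoter, calls and intervals rest on the same tags, so the intervals are not separate support for a difference. At the depth of Msx2-WT the Msx2-KO tags would come to 87.6 and 83.6, or to 50.2 and 36.4 with equal medians of shared regions. Ordered by the smaller −log10 q of the Msx2-KO libraries, 17.4 here, 3 of the 3644 regions shared by the Msx2-KO libraries and absent from Msx2-WT stood above it. The Msx1 promoter region, at 6.20, had 403 of them above it. Apart from these, the 104 kb around Msx1 held no peak in any library, and the Msx1 window was therefore without a peak in Msx2-WT. With lists of equal length the promoter call was lost in Msx2-KO replicate 2, while the downstream region kept its calls. Promoters of Tek (endothelial), Col1a2 (fibroblast), the HFSC markers Lgr5 and Tbx1, and the homeobox gene Satb1 had a peak in the same libraries as Msx1, whereas the fibroblast genes Col1a1 and Pdgfra and the HFSC markers Krt15 and Cd34 lacked one only in Msx2-KO replicate 1. Summed tags over background of the 4 endothelial markers were 0, 25.2 and 24.0, with a promoter without a peak counted as 0. Pecam1 and Cdh5 had no peak in any library, and the part of such cells in the Msx1 peaks was not tested.

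Sequences at the Msx1 and Msx2 start sites and at the second Msx1 region are shown because the paralogs differed there in their calls. The promoter stretches are the 200 bases before the most upstream annotated start, at chr13:53473075-53473274 for Msx2 and chr5:37824586-37824785 for Msx1, both on the minus strand along the gene. They were placed outside annotated exons and so beside the summits in part: the Msx2 stretch holds none of the 3 Msx2 summits and reaches beyond the peaks of both Msx2-KO libraries, and the Msx1 stretch holds the summit of Msx2-KO replicate 1 and not that of Msx2-KO replicate 2. The downstream stretch is centred on the summit, at chr5:37785029-37785228 on the plus strand. Capitals mark matches, on either strand, to the letters TAATTG (bound by MSX and DLX proteins), TAATTA (LHX and other homeodomains), TGANTCA (AP-1), TGTGGT (RUNX), GGAATG (TEAD), ACAAAG (TCF/LEF) and CCAAT (the CCAAT box). ATTGG, the CCAAT box on the other strand, overlaps TAATTG by 4 bases where a G follows.
Msx2 promoter: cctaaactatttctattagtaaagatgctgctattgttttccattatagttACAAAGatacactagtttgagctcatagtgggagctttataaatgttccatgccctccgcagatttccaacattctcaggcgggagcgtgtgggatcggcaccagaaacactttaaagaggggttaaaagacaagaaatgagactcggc
Msx1 promoter: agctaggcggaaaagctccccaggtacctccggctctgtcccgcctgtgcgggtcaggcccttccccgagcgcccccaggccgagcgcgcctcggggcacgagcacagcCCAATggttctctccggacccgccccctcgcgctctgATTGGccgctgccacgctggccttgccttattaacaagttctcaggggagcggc
Msx1 downstream: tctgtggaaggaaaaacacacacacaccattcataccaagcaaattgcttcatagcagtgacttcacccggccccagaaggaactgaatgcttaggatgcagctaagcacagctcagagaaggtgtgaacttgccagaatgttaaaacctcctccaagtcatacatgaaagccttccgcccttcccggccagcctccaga
The Msx1 promoter stretch was 69.0% G+C with 18 CpG and 2 CCAAT boxes, compared with 41.5% and 5 CpG in the Msx2 stretch, which held no CCAAT box. In 301 bases around the best summit itself the promoters were closer, with 71.4% G+C, 32 CpG and 2 CCAAT boxes at Msx1 and 62.1%, 24 and 1 at Msx2. The Msx1 downstream stretch was 49.5% G+C with 3 CpG and matched none of the letters searched. In 301 bases around its summit there was 1 match to TAATTA, with 49.8% G+C and 5 CpG.

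**Figure D2:**
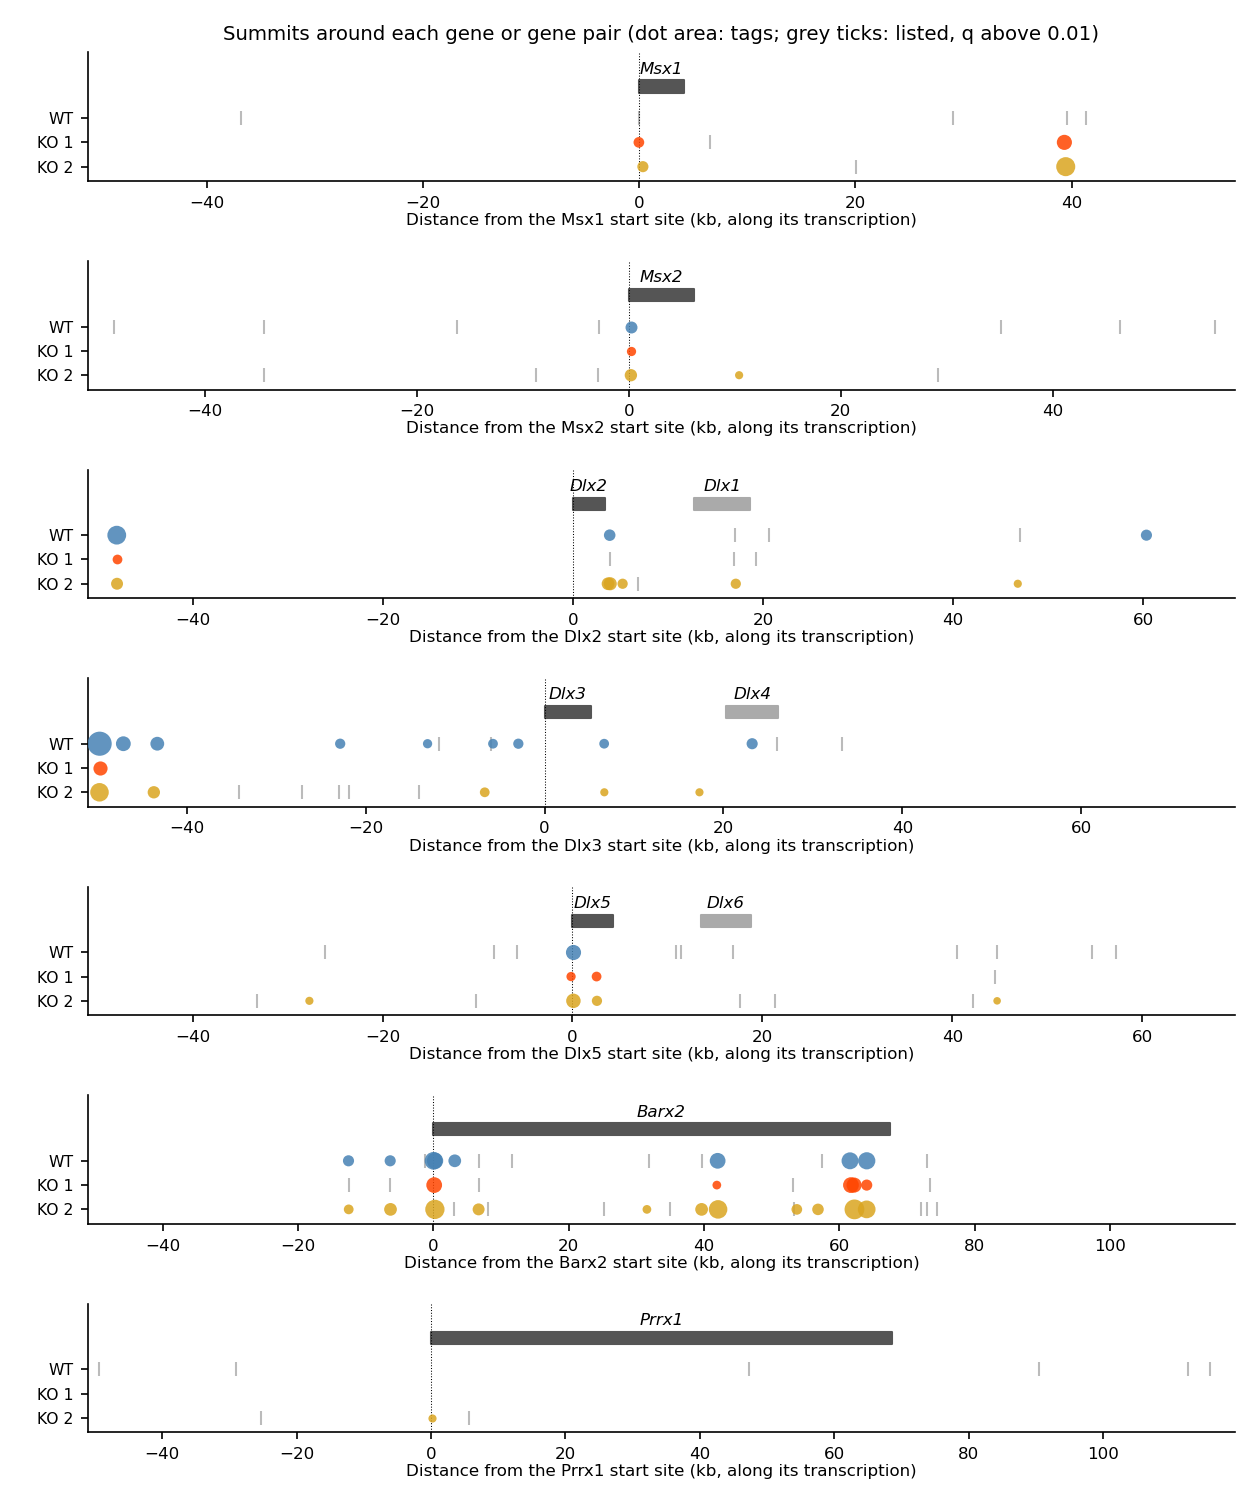
Position of every listed summit by distance in kb from the start site, along transcription, with a panel for each gene or gene pair and a row for each library. Coloured dots passed a q-value of 0.01, with area in proportion to tags, and grey ticks did not. Both Msx2-KO rows of the Msx1 panel carry dots at the start and at 39.5 kb and the Msx2-WT row none, whereas Barx2 carries dots along its gene body in every row.

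Among the Dlx genes only Dlx5, which acts in bone and craniofacial development, had an open promoter. Its summit held 24, 9 and 22 tags, or 13.8 (8.85 to 20.5), 18.9 (8.65 to 35.9) and 27.8 (17.4 to 42.2) over background. Relative to the median shared region the values were 1.04, 0.818 and 0.917, closer to each other than their counting error. The −log10 q of Msx2-KO replicate 1 was 2.35, and with a limit of 5 its call was lost, leaving Msx2 and Barx2 as the genes with a promoter peak in every library. A second Dlx5 region, in a coding exon at chr6:6879088-6879758 and 2.54 kb from the start, held 10 and 11 tags in the Msx2-KO libraries, and no summit was listed in Msx2-WT. It was weaker than most of its kind, since 2378 of the 3644 regions of both Msx2-KO libraries alone had a larger −log10 q than its 2.63. Dlx6, the partner of Dlx5, had no promoter peak. Intergenic sequence 27.7 kb before Dlx5 and an intron of the antisense transcript Dlx6os1 at 44.7 kb each held a peak of Msx2-KO replicate 2, with 7 and 6 tags.

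Dlx1 and Dlx2, best known from forebrain and branchial arch development, had closed promoters and open sequence around them. The 1 region open in every library lay in intergenic sequence 48.0 kb before Dlx2, at chr2:71594147-71595163, with 37, 10 and 15 tags. Over background these were 21.3, 21.0 and 19.0, and relative to the median shared region 1.61 (1.13 to 2.22), 0.909 (0.436 to 1.67) and 0.625 (0.350 to 1.03), so on the second scale Msx2-WT lay above Msx2-KO replicate 2 without overlap. Another region, between the genes and 3925 bases from the Dlx2 start, held 14 tags in Msx2-WT and 18 in Msx2-KO replicate 2, and the 7 tags of Msx2-KO replicate 1 were listed without passing the limit. Within Dlx1, a summit of Msx2-KO replicate 2 with 11 tags stood 1504 bases from the start, only just outside the promoter window, while the 8 tags of Msx2-WT and 5 of Msx2-KO replicate 1 there did not pass the limit. The closed promoters were not poor in CpG. In the 300 bases that RefSeq gives around the start on GRCm38.p6, from 250 before to 50 after, Dlx1 was 69.3% G+C with 27 CpG and Dlx2 66.3% with 29, compared with 70.0% and 29 for Msx1, 61.0% and 22 for Msx2, and 47.7% and 6 for Prrx1. The RefSeq table matched 5 of the 10 genes, without Dlx3, Dlx4, Dlx5, Dlx6 and Barx2. Over all its promoters the median was 52.7% G+C.

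The 200 bases before the Dlx5 start, chr6:6882086-6882285 on the minus strand, and those around the shared Dlx2 summit, chr2:71594649-71594848 on the plus strand, come from regions open in every library, with capitals as above.
Dlx5 promoter: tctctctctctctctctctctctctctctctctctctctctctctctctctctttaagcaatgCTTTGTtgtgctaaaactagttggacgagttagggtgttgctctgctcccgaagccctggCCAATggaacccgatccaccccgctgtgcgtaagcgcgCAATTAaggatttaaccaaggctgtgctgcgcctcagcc
Dlx2 upstream: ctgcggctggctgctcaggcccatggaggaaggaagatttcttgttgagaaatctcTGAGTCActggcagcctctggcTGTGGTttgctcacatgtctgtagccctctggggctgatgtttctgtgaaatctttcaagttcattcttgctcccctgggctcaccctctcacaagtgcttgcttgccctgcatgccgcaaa
The Dlx5 stretch held TAATTG, as CAATTA, close to the start, and the Dlx2 stretch held a match to the AP-1 and to the RUNX letters.

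Dlx3, which drives terminal differentiation in epidermis and hair, and its partner Dlx4 had more peaks in Msx2-WT than in either Msx2-KO library. Their joint window of 126 kb held 9, 1 and 5 peaks. Of its 11 regions, 6 were open in Msx2-WT alone, 2 in Msx2-KO replicate 2 alone, 2 in these 2 libraries and 1 in all. The region open in all lay in an intron of Itga3, an integrin of basal keratinocytes, at chr11:95069610-95070887 near the edge of the window and 49.7 kb before Dlx3, with 61, 21 and 36 tags. The Itga3 start site itself held a peak of 20 tags in Msx2-WT and 16 in Msx2-KO replicate 2. Both were closer to Itga3 than to Dlx3. Around Dlx3 proper the peaks were weak. Peaks of Msx2-WT with 10 and 11 tags stood 5.76 and 2.93 kb before its start, and 1 of 13 tags in a Dlx4 intron, all without a listed summit in either Msx2-KO library. Msx2-KO replicate 2 in turn held a peak of 10 tags 6.68 kb before the Dlx3 start, without a listed summit in the others, with a −log10 q of 6.10 compared with 3.03 for the Msx2-WT peak at 5.76 kb. Both peaks held 10 tags, in libraries with unlike backgrounds of 0.790 and 1.74 tags.

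The 8 regions that Msx2-WT alone held over all 10 genes had 9 to 23 tags and a −log10 q of 2.14 to 5.46. Of these, 7 would fall under the 5 tags needed in Msx2-KO replicate 1 at its depth, and 6 under the 6 needed in Msx2-KO replicate 2. With the medians of shared regions made equal as well, 2 and 0 would. The exception around Dlx3 by depth was a peak of 23 tags in an intron of Itga3, 47.1 kb before Dlx3, which would come to 6.30 and 10.5 tags. Whether the Msx2-KO libraries were deep enough to show the weaker peaks thus depended on the scale. Promoters of 3 of 5 markers of interfollicular epidermis, where Dlx3 is expressed on differentiation, also held a peak in Msx2-WT and no Msx2-KO library. These were Krt10, Ivl and Ly6a, the last encoding Sca-1, against which the cells were sorted. They held 10, 15 and 12 tags in Msx2-WT. The Msx2-WT peak of 13 tags in the Dlx4 intron would come to 3.56 and 5.91 tags at the Msx2-KO depths, under the 5 and 6 needed. With equal medians of shared regions it would come to 6.22 and 13.6. Krt10 and Ly6a held fewer tags than this peak and by depth would also fall under both limits. Ivl would by depth fall under the 5 needed in Msx2-KO replicate 1, where a Msx2-WT peak of 17 tags would come to 4.66. With equal medians only Krt10 would in Msx2-KO replicate 1, where 10 tags would come to 4.78, and none would in Msx2-KO replicate 2. The share of all genes with a promoter peak in Msx2-WT alone was not counted. With a promoter without a peak counted as 0, the summed tags of the 5 markers over background were 21.3 in Msx2-WT and 0 in both others. The 0 thus restates the missing calls and is not a measured level. Krt1 and Flg were without a peak in all. Whether such cells had a part in the Dlx3 peaks was not tested.

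Barx2, a homeodomain factor expressed in hair follicle and muscle, had the most regions of any locus in the group and, in both Msx2-KO libraries, the most peaks. Its window held 7, 4 and 11 peaks, while in Msx2-WT that of Dlx3 and Dlx4 held 9. Its promoter summit held 33, 26 and 39 tags, or 19.0 (13.1 to 26.7), 54.6 (35.7 to 80.0) and 49.4 (35.1 to 67.5) over background. Msx2-WT was below both Msx2-KO libraries on this scale, but relative to the median shared region the values were 1.43 (0.988 to 2.01), 2.36 (1.54 to 3.46) and 1.62 (1.16 to 2.22), with overlapping intervals. Of promoters open in each library, 68.0%, 83.4% and 79.6% had fewer tags. The local background at the Barx2 promoter, 4.97, 2.10 and 6.54 tags, was above that of the library as a whole. The 12 regions of its window comprised 4 open in every library: the promoter and 3 intronic regions.

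Of the intronic Barx2 regions, 3 passed the limit in each library. At 62.2 kb from the start, 5.20 kb before the gene end, a region at chr9:31850534-31852054 held 30, 26 and 41 tags. These came from summits at different places, 31851898, 31851762 and 31851244. With 50% reciprocal overlap it split into a region of both Msx2-KO libraries and another of Msx2-WT alone. The neighbouring region at chr9:31849156-31849802 held 31, 13 and 33, and another, 42.1 kb from the start at chr9:31870958-31871724, held 26, 8 and 36. An intergenic region 6.33 kb before the start held 13, 5 and 17 tags and another at 12.5 kb held 13, 4 and 10, of which the values of Msx2-KO replicate 1 did not pass the limit. Msx2-KO replicate 2 alone held 5 further intronic regions of 8 to 17 tags, and Msx2-WT alone held 1, where the 19 tags of Msx2-KO replicate 2 were listed without passing the limit. The stretch before the Barx2 start, chr9:31913463-31913662 on the minus strand, and that around the intronic summit with the most TAATTG matches, chr9:31849325-31849524 on the plus strand, are shown as the promoter and distal sequence of the locus with the most regions.
Barx2 promoter: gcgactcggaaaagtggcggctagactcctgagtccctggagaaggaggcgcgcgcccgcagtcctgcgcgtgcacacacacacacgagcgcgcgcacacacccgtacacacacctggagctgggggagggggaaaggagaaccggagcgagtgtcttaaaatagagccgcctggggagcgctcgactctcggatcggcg
Barx2 intron: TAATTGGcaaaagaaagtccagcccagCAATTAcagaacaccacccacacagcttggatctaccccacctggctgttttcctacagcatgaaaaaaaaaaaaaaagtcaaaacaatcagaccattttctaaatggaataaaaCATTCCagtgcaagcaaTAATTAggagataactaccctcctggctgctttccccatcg
The promoter stretch was 65.5% G+C with 22 CpG and matched none of the letters, and the intronic stretch was 41.0% G+C with 2 matches to TAATTG and 1 each to TAATTA, the TEAD letters and the CCAAT box.

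Prrx1, a factor of limb and dermal mesenchyme, was closed but for 1 peak. Msx2-KO replicate 2 held 7 tags at its promoter, chr1:163313076-163314172, or 8.86 (3.56 to 18.3) over background, and only 4.23% of open promoters there had fewer. No summit was listed at that promoter in the other libraries, and no other peak lay within its window of 169 kb. Fibroblast markers had promoter peaks at 2, 1 and 3 of 6 genes, with summed tags over background of 17.8, 18.9 and 46.8, or 1.35, 0.818 and 1.54 relative to the median shared region. Dcn, Lum and Twist2 had none, and the part of such cells was not tested.

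At least 1 peak in the window was found for 8, 7 and 10 of the genes, compared with 79.3%, 72.7% and 82.5% of all genes. Per 100 kb of window, all genes had a median of 1.87, 0.966 and 2.23 peaks. Dlx3 had 8.56 in Msx2-WT, more than 98.2% of genes, with 3 of its 9 peaks at Itga3, compared with 0.951 and 4.75 in the Msx2-KO libraries, where 48.7% and 84.4% of genes had fewer. Barx2 was in the upper range in each library, with 4.18, 2.39 and 6.57, above 79.6%, 78.6% and 94.8% of genes. Msx2 was under the median with 0.942, 0.942 and 1.88, and 33.6%, 47.8% and 44.0% of genes had fewer. Msx1 had 0, 1.92 and 1.92. Prrx1 had the sparsest window, with 0, 0 and 0.593.

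**Figure D3:**
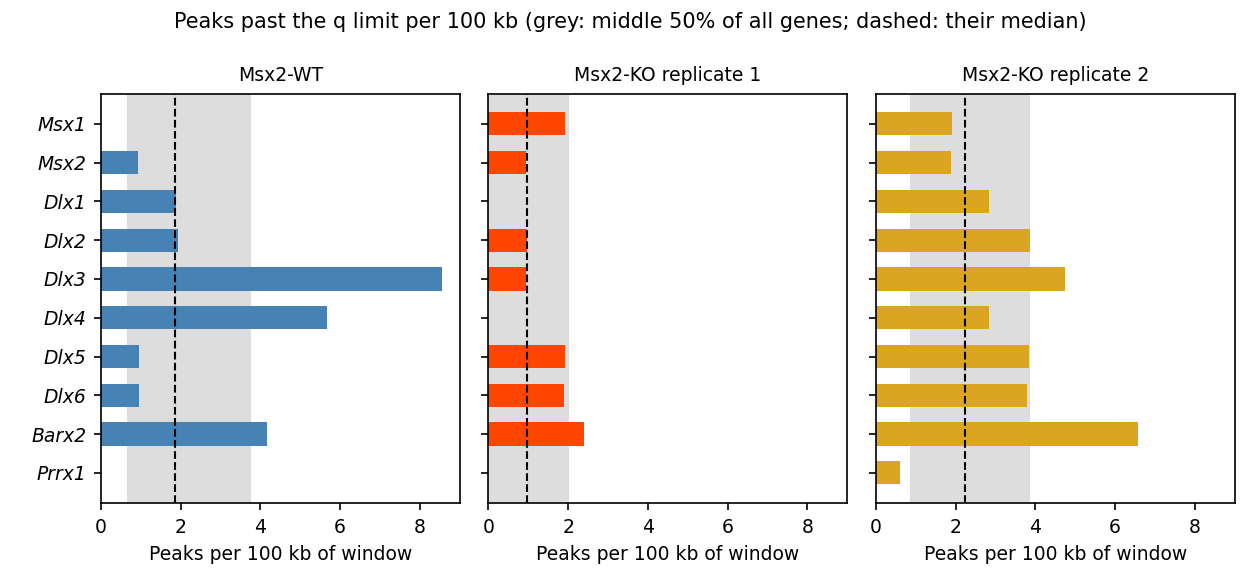
Peaks past a q-value of 0.01 per 100 kb of window for each of the 10 genes, with a panel per library. The grey band is the middle 50% of all genes and the dashed line their median. Dlx3 and Dlx4 exceed the band in Msx2-WT, at 8.56 and 5.67, and Barx2 exceeds it in every panel.

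All windows together held 21, 11 and 29 peaks, which merged into 37 regions. Every library held 8 of them, which is 21.6% beside 27.6% of all 47562 regions. Both Msx2-KO libraries without Msx2-WT held 3 (8.11% beside 7.66%), and these were the pair at Msx1 and the Dlx5 exon. Msx2-WT alone held 8 (21.6% beside 18.7%), Msx2-WT with Msx2-KO replicate 2 held 5 (13.5% beside 14.4%), and Msx2-KO replicate 2 alone held 13 (35.1% beside 28.0%). Nothing was open in Msx2-KO replicate 1 alone (beside 2.85% of all regions) or in it and Msx2-WT alone (beside 0.709%), both rare classes. The shares that followed genotype were close to those of all regions.

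**Figure D4:**
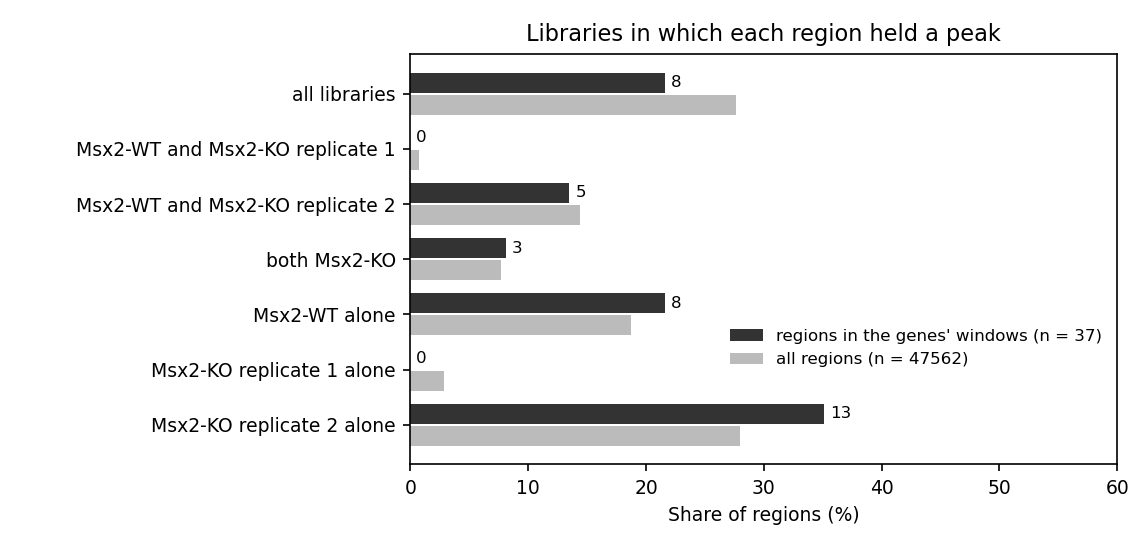
Share of regions in percent by the libraries in which they held a peak, for the 37 regions in the windows of the 10 genes (dark, with their number) and for all 47562 regions (grey). There were 3 regions, or 8.11%, shared by the Msx2-KO libraries alone beside 7.66% of all regions.

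Matches to the homeobox letters were counted in 301 bases around the best summit. Of the 30 regions away from start sites, TAATTG occurred in 5 (16.7%), beside 12.4% of all such regions, and TAATTA in 5 (16.7%), beside 10.2%. AP-1 letters occurred in 6 (19.2% of all), RUNX letters in 8 (21.3%), TEAD letters in 8 (20.7%), TCF/LEF letters in 3 (24.9%) and the CCAAT box in 9 (35.0%). The other 7 regions lay within 1500 bases of a start site, 2 of them at Itga3. There the CCAAT box occurred in 4, beside 36.7% of all promoter regions, and these were at Msx1, Msx2, Dlx5 and Prrx1. TAATTG occurred in 1 of the 7 (3.66% of all), TAATTA in 2, Msx2 and Prrx1 (1.81%), TCF/LEF letters in 2 (11.3%), TEAD letters in 1 (10.7%) and AP-1 and RUNX letters in 0 (5.23% and 11.0%). A match is a description of the sequence and not a bound site.

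Other homeobox genes showed what an open homeobox promoter looked like in these cells. Of 39 further genes of the NKL class, to which MSX, DLX and BARX belong, 1 promoter was open in each library, a different gene each time (En2, Vax1 and Nkx2-1 in that order), and 36, Msx3 among them, were open in none. Of 25 further genes of the PRD class, to which PRRX belongs, 1, 1 and 4 were open, and Isx, known from the gut, was open in all. Among 5 homeobox genes of the hair follicle, Lhx2, Hoxc13 and Tgif1 were open in every library, Satb1 in both Msx2-KO libraries, and Cux1 in none. Lhx2, which maintains HFSCs, held 33, 28 and 59 tags, and Hoxc13, a hair keratin regulator, 34, 14 and 24. Tgif1, a TGF-beta repressor, held 34, 18 and 29, and Isx 11, 13 and 18. By the summed absolute log2 difference of tags over background across the 3 libraries, the genes closest to Msx2 were Isx at 1.15, Hoxc13 at 2.40 and Tgif1 at 3.04, out of 4 with a promoter peak in all. Barx2 thus had promoter tags in the range of Lhx2, Hoxc13 and Tgif1, whereas Msx2 had fewer. The deposited fold over the local background was 5.69, 8.70 and 5.30 at Barx2 and 5.04, 6.03 and 7.51 at Msx2. By that measure Msx2 was the higher in Msx2-KO replicate 2.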

How the data were processed

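Omni-ATAC-seq peak lists of 3 libraries, 1 Msx2-WT and 2 Msx2-KO, were used as deposited. The authors used Trimmomatic for trimming, BWA-MEM for alignment to GRCm38 and MACS2 for peak calling on each library, with duplicates kept and mitochondrial reads excluded, per the study's methods. Replicates were not pooled. The authors deposited for each summit a fold enrichment over the local background, −log10 p and −log10 q values, the summit offset, and a score that was not used. The lists reach down to a p-value of 0.01, although a q-value of 0.01 is named, so summits with a −log10 q above 2.0 were kept.

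The deposited fold and −log10 p together fix the number of tags at a summit, which came out whole (tolerance 0.01 in −log10 p) for 99.93%, 99.95% and 99.97% of summits, in the order of the report. The commonest local background of a library stood for its depth, by which Msx2-WT was 3.65 and 2.20 times as deep as the Msx2-KO libraries. Kept duplicates are not independent molecules. The steps were tested on simulated data. Peaks sharing at least 1 base were merged into regions. Genes came from the basic GENCODE M21 annotation and sequences from the GRCm38.p6 reference and RefSeq.

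All 10 genes were named, with other homeobox genes open in all 3 libraries (the 5 with the most tags over background in their weakest library, of which 4 existed, and the 3 closest to Msx2) and neighbours whose start lay within 1500 bases of a summit. The Dlx5 exon, the Msx2-KO replicate 2 regions and the marker and homeobox genes named from short counts were singled out after their values were seen. The genes and lists were chosen with earlier results of these data known. Drgx, of 26 PRD genes listed, was not found under that name. No test between genotypes was run. Results were recomputed with lists cut to equal length by −log10 p, a −log10 q of 5 or more, promoter windows of 500 and 3000 bases, 20 kb either side, 50% reciprocal overlap, leaving out each Msx2-KO library and, added after the data were seen, every deposited peak. RNA-seq was not used here. Tools were matplotlib 3.10.9, scipy 1.17.1, pandas 2.3.3 and numpy 2.4.6 in Python 3.11.15.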

Additional observations from a re-analysis of the deposited data

How the results depend on the processing

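Of 70 values recomputed under the alternatives, 47 stayed within 1.5 times the reported value and 23 moved further. With lists of equal length, Msx2-KO replicate 2 had a promoter peak at 3 genes, so that Msx1 was no longer open in both Msx2-KO libraries (0 genes), and 1 region, the downstream region of Msx1, was still shared by the Msx2-KO libraries without Msx2-WT. That setting left 12 peaks in Msx2-KO replicate 2 and 3 regions in Msx2-WT alone. At a −log10 q of at least 5, Msx1 stayed open in both Msx2-KO libraries, Dlx5 was no longer open in Msx2-KO replicate 1, so that 2 genes (Msx2 and Barx2) were open in all libraries, 7 and 15 peaks were left in the Msx2-KO libraries, 5 regions in all libraries and 3 for Msx2-WT alone. When every deposited peak was kept, a setting chosen after the data were seen, Msx2-WT had a promoter peak at 5 genes, Msx1 included, 0 genes were open in both Msx2-KO libraries alone, the libraries held 62, 21 and 54 peaks, 16 regions were in all and 35 in Msx2-WT alone. Those in all then included the Msx1 promoter and the downstream region of Msx1. The 3 regions of both Msx2-KO libraries alone were then the Dlx5 exon and regions of the Barx2 window. A promoter window of 3000 bases gave 5 genes in Msx2-WT, with Dlx3 and Dlx4 added. With 20 kb either side, 5 regions were in Msx2-WT alone, and with 50% reciprocal overlap 13 were. Under that overlap 7 regions were in all libraries. The 3 of both Msx2-KO libraries alone were then the Msx1 pair and the Barx2 region at 62.2 kb, without the Dlx5 exon.

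Leaving out each Msx2-KO library gave 1 to 2 genes with a promoter peak in the Msx2-KO library left and not in Msx2-WT, 8 to 13 regions in all libraries, 3 to 16 in Msx2-KO without Msx2-WT, and 8 to 13 in Msx2-WT alone. The higher values came without Msx2-KO replicate 1, except for regions of Msx2-WT alone, where 13 came without Msx2-KO replicate 2. No paired analysis was possible because Msx2-WT has 1 library and shares only 1 replicate number with Msx2-KO. Depth sets the limit: a region with fewer than 9 tags could not pass in Msx2-WT, and genotype and batch coincide.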
